A study of Mus musculus with 2 samples.

Results

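The RING finger genes described here are the mouse genes named Rnf and a number on a pair of promoter arrays, without Rnf2, Rnf8, Rnf20, Rnf40 and Rnf168. Of 17327 genes that received a value on the 2 arrays, 58 were Rnf genes, 25 on array 1 and 33 on array 2, and all 58 could be measured. Membership goes by the gene name. A gene's value was the log2 ratio of CREM over IgG signal, centred on the median of its array, taken as the median of 3 neighbouring probes whose starts lay at most 500 bp apart, here called a window. The highest and the lowest window of each gene were both followed.

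The arrays were hybridised with chromatin from germ cells of 5 testes of adult male C57BL/6 mice, fixed with formaldehyde, in a search for the places where the transcription factor CREM sits in the testis. DNA precipitated with the CREM antibody sc-440 (Santa Cruz) carried Cy5, and DNA precipitated with goat IgG, the negative control, carried Cy3. The germ cells were not separated by stage and no cell type can be read from precipitated DNA, so a ratio is an average over them. The arrays tile different promoters, each has 1 hybridisation, and the dyes were not swapped. Antibody and dye therefore cannot be told apart, no replicate error exists, and no difference below has a test.

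RING finger ligases are the largest class of ubiquitin ligases: they hold a ubiquitin-loaded conjugating enzyme next to a substrate, and the ubiquitin chain then marks the substrate for the proteasome, for a change of place or for a signalling complex. RING-between-RING ligases differ in that they take the ubiquitin onto a cysteine of their own first. In the male germ line ubiquitin ligases act when histones give way to protamines, when the acrosome forms and when most of the cytoplasm is shed. CREM is a member of the CREB family that drives many genes of round spermatids, and this family recognises the cAMP response element TGACGTCA, or its core TGACG.

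The probe sequences below carry the CREM-side findings at Rnf5, the highest of the 58 genes, at Rnf4 and at Rnf122. They are shown because each set holds a core, printed in capitals (TGACG, or CGTCA where the core reads on the other strand). The Rnf122 probe has a low ratio of its own but lies inside called windows.

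Rnf5, probe chr17:34740581-34740639 (mm9), log2 ratio 2.93: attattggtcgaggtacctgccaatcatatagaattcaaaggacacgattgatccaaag
Rnf5, probe chr17:34740768-34740817 (mm9), log2 ratio 2.96: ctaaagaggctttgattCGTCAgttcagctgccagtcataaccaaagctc
Rnf5, probe chr17:34740895-34740944 (mm9), log2 ratio 5.53: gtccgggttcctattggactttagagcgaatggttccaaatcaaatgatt
Rnf5, probe chr17:34741259-34741304 (mm9), log2 ratio 1.95: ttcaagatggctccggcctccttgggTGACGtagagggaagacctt
Rnf4, probe chr5:34679537-34679581 (mm9), log2 ratio 1.15: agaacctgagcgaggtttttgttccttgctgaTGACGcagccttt
Rnf122, probe chr8:32223226-32223270 (mm9), log2 ratio 0.46: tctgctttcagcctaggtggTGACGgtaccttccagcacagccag

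The next probes hold no core and are shown for their ratios. The 3 probes of Rnf214 make the highest window whose probes all reached 2-fold over IgG signals that were all well above background, and those of Rnf151 carry the lowest window of all 58 genes.

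Rnf214, probe chr9:45715123-45715167 (mm9), log2 ratio 2.05: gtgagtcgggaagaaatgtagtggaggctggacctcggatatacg
Rnf214, probe chr9:45715349-45715393 (mm9), log2 ratio 1.89: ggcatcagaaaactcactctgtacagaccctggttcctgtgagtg
Rnf214, probe chr9:45715479-45715538 (mm9), log2 ratio 1.96: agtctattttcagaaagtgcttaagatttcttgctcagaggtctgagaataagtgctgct
Rnf151, probe chr17:24853228-24853272 (mm9), log2 ratio -4.76: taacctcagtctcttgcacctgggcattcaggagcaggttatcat
Rnf151, probe chr17:24853399-24853444 (mm9), log2 ratio -4.72: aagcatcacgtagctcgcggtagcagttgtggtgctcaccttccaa

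The promoters below, 250 bases before to 50 bases after an annotated start, come from the RefSeq table of GRCm38.p6. They are examples from the 12 Rnf genes called on the CREM side that had a promoter with a core. They run 5' to 3' along the strand of the gene, and capitals again mark the core on either strand.

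Rnf4 promoter, plus strand, chr5:34336682-34336981 (GRCm38.p6): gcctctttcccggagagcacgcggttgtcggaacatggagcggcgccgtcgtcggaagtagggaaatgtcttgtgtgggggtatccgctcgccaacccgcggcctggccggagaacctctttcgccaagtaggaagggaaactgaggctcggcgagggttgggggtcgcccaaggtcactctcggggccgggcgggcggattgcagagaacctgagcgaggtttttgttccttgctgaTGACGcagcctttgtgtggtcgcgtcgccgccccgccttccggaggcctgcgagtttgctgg
Rnf166 promoter, minus strand, chr8:122476025-122476324 (GRCm38.p6): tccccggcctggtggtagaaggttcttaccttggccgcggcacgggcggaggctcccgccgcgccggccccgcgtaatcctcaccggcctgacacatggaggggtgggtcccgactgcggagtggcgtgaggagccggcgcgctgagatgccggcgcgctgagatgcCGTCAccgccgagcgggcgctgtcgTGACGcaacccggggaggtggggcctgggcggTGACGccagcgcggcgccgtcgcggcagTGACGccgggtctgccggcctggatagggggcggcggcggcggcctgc
Rnf141 promoter, minus strand, chr7:110844332-110844631 (GRCm38.p6): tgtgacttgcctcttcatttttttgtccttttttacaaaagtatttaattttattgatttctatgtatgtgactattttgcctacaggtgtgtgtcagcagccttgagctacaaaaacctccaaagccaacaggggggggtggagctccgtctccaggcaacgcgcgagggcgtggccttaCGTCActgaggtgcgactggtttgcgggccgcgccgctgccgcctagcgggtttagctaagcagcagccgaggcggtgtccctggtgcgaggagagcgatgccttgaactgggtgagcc

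CREM signal exceeded IgG signal at many Rnf genes. The highest window reached a log2 ratio of 1 (2-fold, the threshold used throughout) at 30 of 58 Rnf genes, or 51.7%, against 34.4% of all genes on the arrays. Rnf5 led with 2.96, followed by Rnf25 (2.17), Rnf12 (2.16) and Rnf181 (2.15), and these 4 were the members at 2 or more, a level that 5.38% of all genes reached. The median highest window was 1.01 over the Rnf genes and 0.77 over all genes. By array, the threshold was reached by 14 of 25 Rnf genes on array 1, against 33.3% of its genes, and by 16 of 33 on array 2, against 35.6%. The number of windows differed little, with a median of 20 for an Rnf gene and 19 for any gene, and 35.0% of the genes with as many windows as the Rnf genes reached 1.

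The IgG side held nearly as many Rnf genes. The lowest window lay at -1 or less at 28 Rnf genes, or 48.3%, against 33.6% of all genes, with 12 on array 1 (34.4% of its genes) and 16 on array 2 (32.9%). The median lowest window was -0.96 for the Rnf genes and -0.76 for all genes. Both sides were reached by 11 Rnf genes (19.0%, against 12% of all genes), the CREM side alone by 19, the IgG side alone by 17 and neither by 11 (19.0%, against 43.9%). For all genes the share on 1 side alone is that of the side, 34.4% for CREM or 33.6% for IgG, less the 12% on both. The share of Rnf genes thus exceeded that of all genes for CREM and for the control alike.

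**Figure D1:**
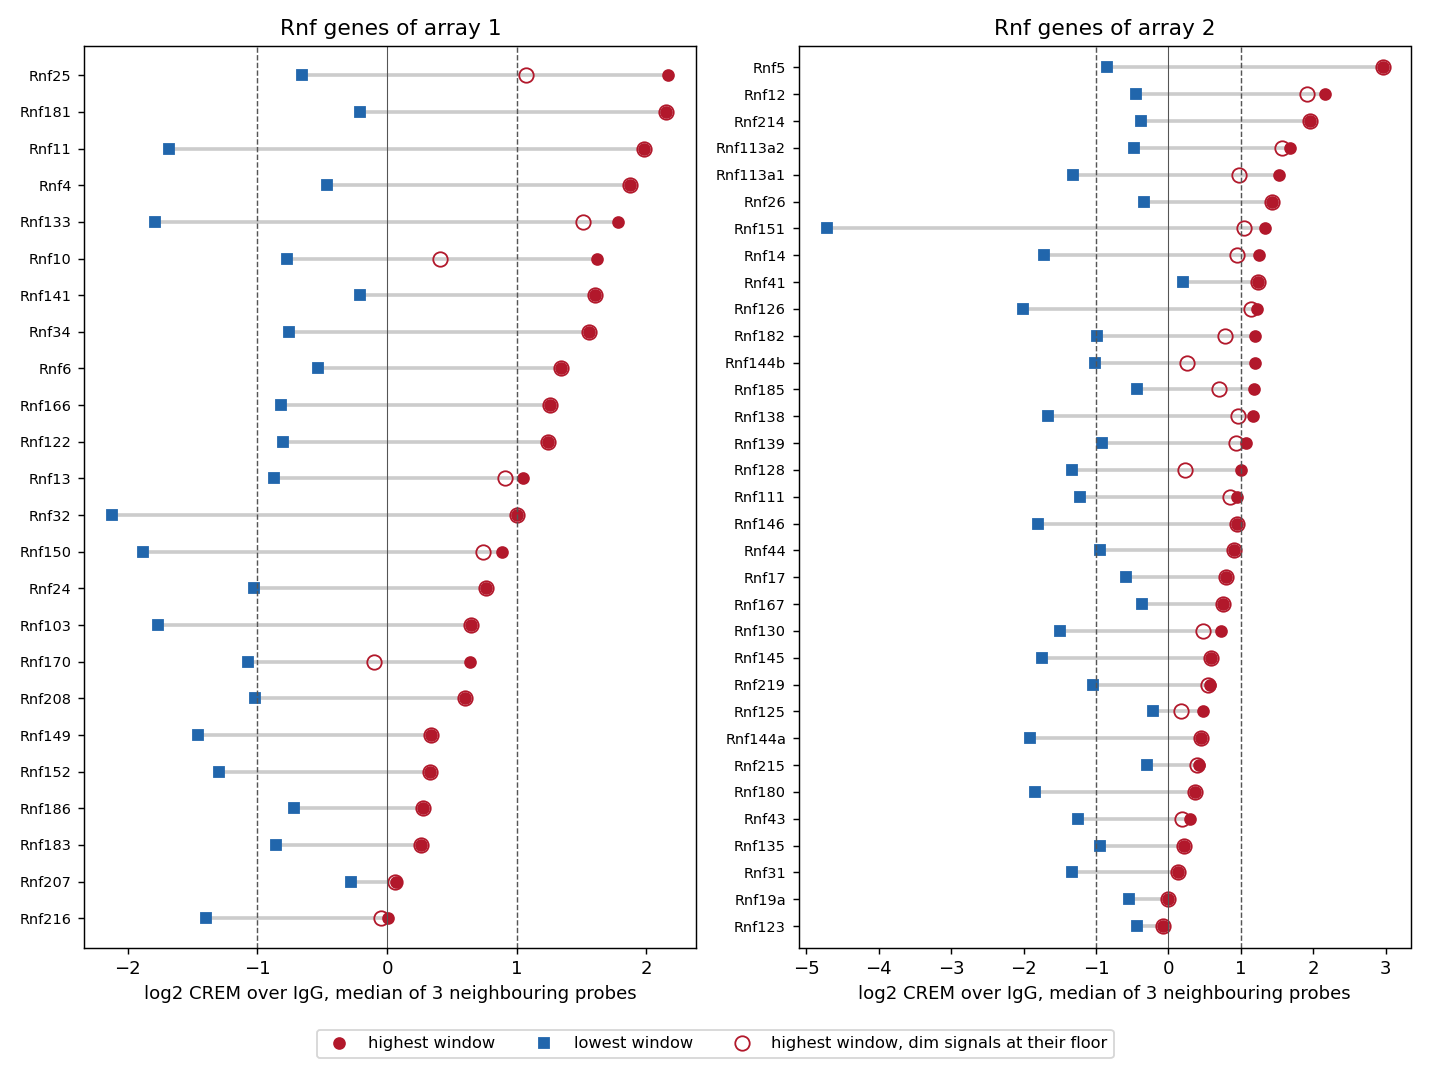
Highest (red) and lowest (blue) window of the Rnf genes, in log2 CREM over IgG, for array 1 on the left and array 2 on the right, with dashed lines at 1 and -1. Open circles give the highest window after dim signals were set to their floor. Rnf5 has the highest value, 2.96, and Rnf151 the lowest, -4.72.

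Much of the CREM side rested on dim IgG signals. The CREM signal was well above background at 96.3% of probes on array 1 and 95.5% on array 2, and the IgG signal at 77.4% and 78.4%. Of the 30 called highest windows, 9 had all 3 IgG probes well above background, 7 had 2, 12 had 1 and 2 had 0. A ratio over a dim IgG signal is only bounded, so each window was also given with every dim signal set to the lowest signal that was well above background in that channel (CREM 99.4 and 103, IgG 306 and 288 on arrays 1 and 2), and such a value is written below as "at least". On that scale 20 Rnf genes (34.5%) reached 1, against 21.3% of all genes, and 28 (48.3%) lay at -1 or less, against 41.5% of all genes. Raising a dim IgG signal can only lower a ratio, so this scale is not a strict one for the IgG side. The share of all genes at -1 or less rose from 33.6% to 41.5%. The stricter demand that all 3 probes reach 1 was met by 15 Rnf genes (25.9%), against 14.0% of all genes, and on the IgG side all 3 probes reached -1 at 14, against 11.9%. In 22 of the 28 called IgG-side windows no signal of either channel was dim.

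Rnf5 encodes a ligase anchored in the membrane of the endoplasmic reticulum, where it marks misfolded proteins for removal. Its highest window, chr17:34740581-34740944, had probes at 2.93, 2.96 and 5.53. The CREM signals were 469, 9570 and 3130, and the IgG signals 60.5, 1220 and 66.6. Only the middle probe, the first of the printed Rnf5 probes that holds a core, had an IgG signal well above background, and the window stays at 2.96 with the dim signals at their floor. The called windows around it joined into a region of 1932 bp with 11 probes, 9 of them at 1 or more and the lowest at 0.70. The next 3 probes at higher coordinates read -0.85, -1.65 and -0.73, and the 7 at lower coordinates lay between 0.00 and 0.96.

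Rnf214 had an even window at chr9:45715123-45715538, 336 bp upstream of the annotated start by its centre. Its probes read 2.05, 1.89 and 1.96, from CREM signals of 5060, 10500 and 26900 over IgG signals of 1210, 2800 and 6840, all well above background. This start lies back to back with that of Pcsk7, a proprotein convertase gene. Among the 43 Rnf genes with a promoter in the RefSeq table, 6 had a start of another gene on the opposite strand within 1000 bp. Of these 6, 4 (Rnf25, Rnf34, Rnf166 and Rnf214) were called on the CREM side, against 34.4% of all genes. How many of all genes have such a neighbour was not counted. The ratio at such a place cannot be assigned to either gene. The arrays also name a neighbour in the highest window of Rnf167 (Slc25a11), Rnf31 (Irf9) and Rnf41 (Obfc2b) and in the lowest window of Rnf166 (2310061F22Rik), Rnf170 (Hook3) and Rnf123 (Mst1).

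Rnf4, a ligase that recognises chains of SUMO, had the longest region. Its 13 called windows of 16 joined over 3506 bp and 17 probes, 12 of them at 1 or more. The highest window, chr5:34679537-34679982, had probes at 1.15, 1.97 and 1.87, with CREM signals of 1200, 2570 and 9770 over IgG signals of 533, 644 and 2630. All 3 IgG signals were well above background. The probe at 1.15 is the one printed above with a core, and its middle lies 22 bp upstream of an annotated start.

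Rnf181, a small cytosolic ligase, had 10 called windows of 16, and its region spanned 2251 bp. The highest window, chr6:72312429-72312752, held probes at 1.35, 2.70 and 2.15, with CREM signals of 682, 1860 and 3720 over IgG signals of 263, 281 and 821, and only the last IgG signal was well above background. The ratio is at least 2.15 there. Rnf12, now named Rlim, an X-linked ligase needed in mouse females for imprinted inactivation of the paternal X, had 2.01, 2.48 and 2.16 at chrX:101176821-101177164. None of these 3 IgG signals (60.5, 215 and 131) was well above background, which leaves at least 1.03 for this window, while another window of the gene had at least 1.92.

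**Figure D2:**
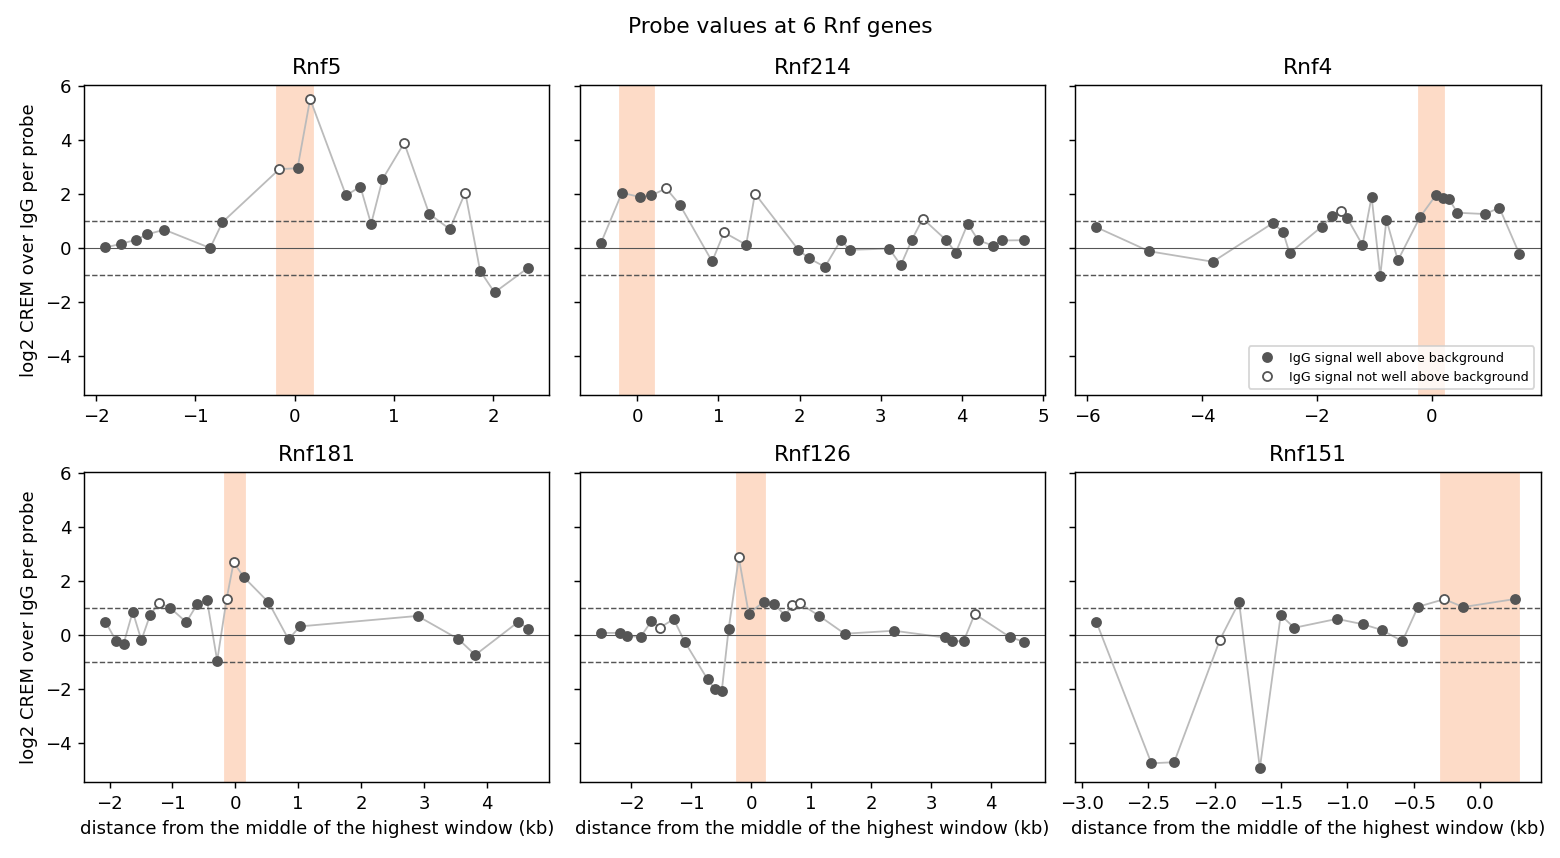
Log2 CREM over IgG of every probe at 6 Rnf genes, by distance in kb from the middle of the highest window (shaded). Filled points have an IgG signal well above background and open points do not. Rnf5 and Rnf4 hold runs of probes at 1 or more, Rnf126 has its lowest window beside its highest one, and Rnf151 has 3 probes between -4.94 and -4.72 among neighbours near or above 0.

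Among the other genes of the highest 10, Rnf25, whose start lies back to back with that of Stk36, read 1.07, 2.28 and 2.17 at chr1:74647095-74647500, where the CREM signals were 1270, 650 and 867 and the IgG signals 598, 132 and 189. Only the first IgG signal was well above background, so that the window stands at least at 1.07. Rnf11, an adaptor-like ligase of the A20 complex in NF-kappaB signalling, read -1.0, 1.98 and 2.40 at chr4:109149061-109149638, with CREM signals of 3210, 6390 and 6670 over IgG signals of 6320, 1590 and 1240. No signal of these probes was dim, and they do not share a direction. Rnf133 (1.78) and Rnf113a2 (1.68) are described with the testis genes.

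Further genes lay between 1.25 and 1.62. Rnf10, a ligase of ribosomal proteins in human cells, reached 1.62 from probes at 1.99, 0.12 and 1.62, and with dim signals at their floor this window stood at 0.12 and the best window of the gene at 0.41. Rnf34 reached 1.56 from 2.23, 1.56 and -1.40, and Rnf26, an endoplasmic reticulum ligase, 1.43 from 2.64, 1.43 and 0.15, both with bright IgG signals. Rnf6, known in human cells as a ligase of the androgen receptor, was even, with 1.34, 1.12 and 2.14 centred 87 bp downstream of an annotated start, and all 3 IgG signals (440, 1440 and 931) were well above background under CREM signals of 1130, 3190 and 4190.

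Just inside the threshold were Rnf32 (1.00), Rnf128 (1.01) and Rnf13 (1.05), and just outside it Rnf146 (0.95), Rnf111 (0.95) and Rnf44 (0.90). Rnf32 read 1.30, 0.90 and 1.00, whereas Rnf146, a ligase that recognises poly-ADP-ribose, read 0.52, 0.95 and 1.00, and the spread within each window exceeds the gap between those genes. With dim signals at their floor, the best windows of Rnf128 and Rnf13 stood at 0.23 and 0.91. At the other end Rnf123 (-0.07), Rnf19a (0.00) and Rnf216 (0.01) had the lowest highest windows. Rnf123 was the single Rnf gene below 0, as were 3.82% of all genes, and none of its 11 windows was called on either side.

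Genes tied to the testis were not alike. Of 7 measured, 4 were called on the CREM side (Rnf133, Rnf113a2, Rnf141 and Rnf151), 3 on the IgG side (Rnf133, Rnf151 and Rnf216) and 2 on neither (Rnf17 and Rnf19a). These shares were 57.1% for CREM and 42.9% for IgG, against 34.4% and 33.6% of all genes. Rnf133, a germ-cell ligase of the endoplasmic reticulum, read 1.84, 1.51 and 1.78 at chr6:23600391-23600737, 259 bp upstream of its start by the window's centre. The CREM signals were 1260, 1120 and 480 over IgG signals of 347, 386 and 137, and the ratio is at least 1.51. The same gene went to -1.79 in another window, 3848 bp upstream.

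Rnf113a2 read 1.68, 1.21 and 1.95 at chr12:85758713-85759257, with CREM signals of 699, 3060 and 234 over IgG signals of 215, 1300 and 59.7, which leaves at least 1.21. Its X-linked relative Rnf113a1 (the human gene RNF113A encodes a protein of the spliceosome) read 0.30, 1.53 and 2.31 in its highest window. None of the 3 IgG signals of Rnf113a1 there (199, 57.4 and 92.9) was well above background, and another of its windows stood at 0.98 with dim signals at their floor. Rnf141, a gene strongly expressed in testis, read 1.17, 2.06 and 1.60 at chr7:117986853-117987361, 788 bp downstream of the start, with CREM signals of 1020, 1380 and 8450 over IgG signals of 446, 327 and 2730. Rnf17, which is needed for spermiogenesis in mice, stayed at 0.80, from 0.74, 1.53 and 0.80.

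Rnf151, a testis gene whose product has been linked to the acrosome in mice, had the lowest window of the set. Its CREM-side window, chr17:24855431-24856024, read 1.33, 1.04 and 1.34, 725 bp upstream of the start, with CREM signals of 467, 4690 and 5080 over IgG signals of 183, 2240 and 1980. The ratio is at least 1.04 there. Its lowest window, centred 1877 bp downstream of the start, read 0.48, -4.76 and -4.72. The 2 low probes, printed above, had CREM signals of 779 and 1280 against IgG signals of 20800 and 33300. A further probe, 935 bp downstream of the start, read -4.94, with 4070 for CREM and 123000 for IgG, while the probes between them read -0.17 and 1.22. Of the probes used on array 2, 6 lay at -4 or less, and 3 of them belong to Rnf151. None of these spots was saturated, and 63 probes of array 2 had a brighter IgG signal. Where probes had to start within 250 bp, or where all 3 had to lie low, the gene's lowest window was -0.17.

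Of the role groups, nuclear and DNA repair genes had the largest share on the CREM side, with 7 of 9 measured (77.8%, against 34.4% of all genes) and a median highest window of 1.34, against 0.77 for all genes. Rnf12, Rnf4, Rnf113a2, Rnf113a1, Rnf6, Rnf126 and Rnf138 reached the threshold, and Rnf111 (0.95), a ligase of the TGF-beta pathway, and Rnf219 (0.57), now named Obi1, did not. With dim signals at their floor, the best windows of Rnf113a1 and of Rnf138, a DNA repair ligase, fell under 1, to 0.98 and 0.96. The other called genes of the group stayed at 1 or more, Rnf126 at 1.14. On that scale 21.3% of all genes reached 1. On the IgG side 5 of the 9 were called, or 55.6%, against 33.6% of all genes.

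RING-between-RING genes were called on the CREM side in 2 of 6 (Rnf14 at 1.25 and Rnf144b at 1.19), a share of 33.3% that lies near the 34.4% of all genes, and on the IgG side in 5 of 6, against 33.6% of all genes. Their median highest window was 0.29, against 0.77 for all genes, and their median lowest window -1.36, against -0.76. Rnf31, the catalytic subunit of the linear ubiquitin chain assembly complex, had 0.13 and -1.33, and its highest window is also named for Irf9. Both windows lay far from the nearest start placed on the array, 11954 bp downstream for the highest and 9502 bp downstream for the lowest. The CREM-side window of Rnf14 had 1 IgG probe well above background, and so had that of Rnf144b, which falls to 0.26 over its best bounded window. Groups of this size overlap in their ranges, from 0.00 to 1.25 here against 0.57 to 2.16 for the nuclear genes.

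Protease-associated transmembrane genes, whose lumenal domain faces the endosome or the outside of the cell, were called on the CREM side in 3 of 8 (Rnf133, Rnf13 and Rnf128), a share of 37.5% near the 34.4% of all genes, and on the IgG side in 6 of 8, against 33.6%. Rnf43, which removes Wnt receptors from the cell surface, had 0.30 and -1.25. Other membrane genes were called in 6 of 14 on each side (42.9%, against 34.4% of all genes for CREM and 33.6% for IgG), with none on both. Rnf5, Rnf26, Rnf122, Rnf182, Rnf185 and Rnf139 made up the CREM side of this group. With dim signals at their floor, the best windows of Rnf182, Rnf185 and Rnf139 fell under 1, to 0.78, 0.70 and 0.94. Those of Rnf5, Rnf26 and Rnf122 did not change. Rnf122 was even, with 1.24, 1.17 and 1.34 at chr8:32223543-32223966, IgG signals of 1640, 2330 and 1980 that were all well above background, and 10 called windows of 21.

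Signalling genes were called in 3 of 10 on the CREM side (Rnf11, Rnf41 and Rnf128), or 30.0%, near the 34.4% of all genes, and in 7 of 10 on the IgG side, against 33.6%. Rnf41, a ligase that lowers the level of the growth factor receptor ErbB3, was the single Rnf gene with no window below 0, its lowest at 0.20, although 1 probe 217 bp downstream of the start read -2.36. Its highest window, 1.24, was shared with Obfc2b, and the region of 1306 bp that both genes name held probes up to 3.76. The same gene may stand in more than 1 of these groups, which together hold 45 of the 58 genes. Of the 13 others, 8 were called for CREM and 3 for IgG, against 34.4% and 33.6% of all genes.

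**Figure D3:**
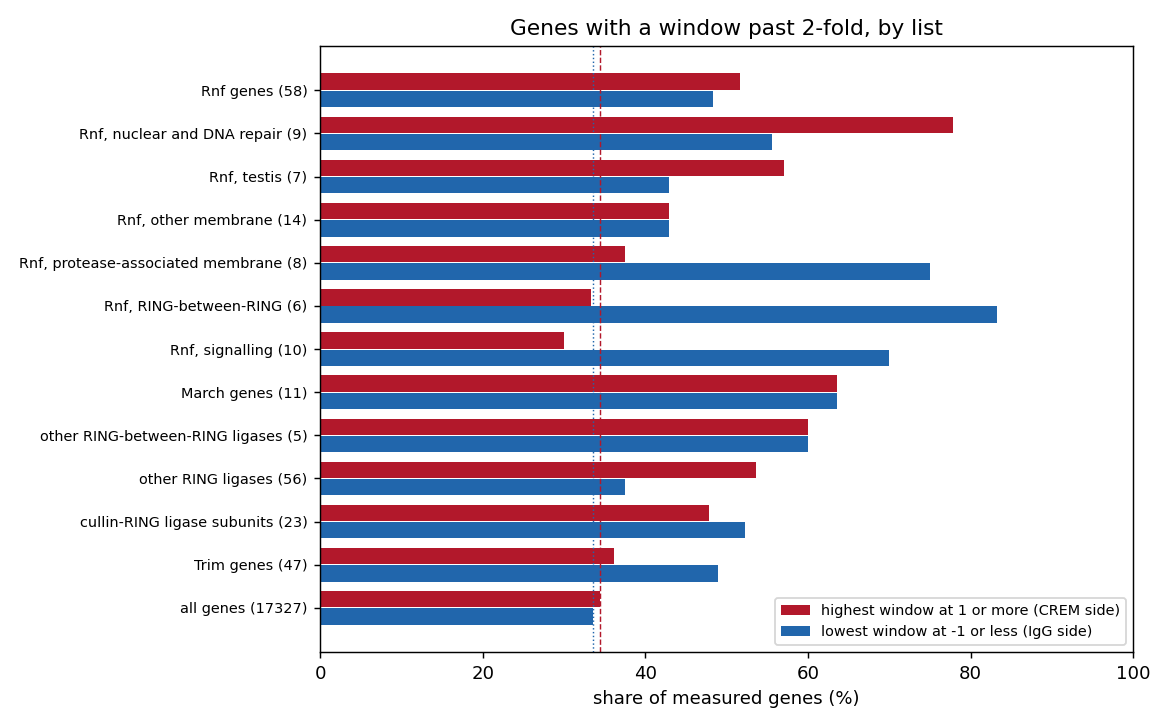
Share of measured genes (%) with a highest window at 1 or more (red) and with a lowest window at -1 or less (blue), for the Rnf genes, their role groups, other ligase lists and all genes. The number measured is in brackets, and the lines mark 34.4% and 33.6% of all genes. Nuclear and DNA repair genes have 77.8% on the CREM side and RING-between-RING genes 83.3% on the IgG side.

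Ubiquitin ligase genes without an Rnf name were counted the same way. Of all genes, 34.4% reached 1 for CREM and 33.6% reached -1 for IgG. Of 56 other RING ligase genes, 30 (53.6%) reached 1 for CREM, with a median highest window of 1.08. For IgG 21 of them reached -1, a share of 37.5% near that of all genes. March genes, which encode membrane ligases, had 7 of 11 on each side (63.6%), and cullin-RING subunits 11 and 12 of 23 (47.8% and 52.2%). Other RING-between-RING genes had 3 and 3 of 5 (60.0% each), and Trim genes 17 and 23 of 47 (36.2% and 48.9%). The Trim share of 36.2% on the CREM side lay near the 34.4% of all genes. The highest of each list were Brca1 (3.37, at least 1.75) and Pja1 (2.80), March7 (1.90) and March9 (1.83, at least 0.17), Skp1a (1.92) and Anapc11 (1.87), Arih1 (3.29, at least 3.18) and Arih2 (1.97), and Trim39 (3.24, at least 1.57) and Trim26 (2.25). Trim9 equalled Trim26 at 2.25 but stood at least at 0.20.

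The called lowest windows of the Rnf genes lay closer to starts and in GC-richer sequence than the called highest ones, as the counts below show. After Rnf151, the lowest windows were those of Rnf32 (-2.12), Rnf126 (-2.01), Rnf144a (-1.91), Rnf150 (-1.88) and Rnf180 (-1.84). Rnf126, counted above with the nuclear and DNA repair genes, is also a ligase of the cytosolic quality control of membrane proteins. It read -1.64, -2.01 and -2.07 at 54 bp from its start, with CREM signals of 1120, 6950 and 463 over IgG signals of 3460, 27700 and 1920. Rnf32 read 0.76, -2.45 and -2.12 54 bp upstream, with CREM signals of 708, 623 and 437 over IgG signals of 410, 3350 and 1860. In Rnf144a the probes read -1.03, -2.43 and -1.91, in Rnf150 -1.30, -1.88 and -2.87, and in Rnf180 -1.61, -1.84 and -1.98, all over IgG signals well above background. The CREM signal of the Rnf150 probe at -2.87 was dim (60.9), so that probe's ratio is only bounded. The Rnf150 window stays at -1.88 with the dim signal at its floor. Just inside the threshold of -1 were Rnf144b (-1.01), Rnf208 (-1.02) and Rnf24 (-1.03), and just outside it Rnf182 (-0.98), Rnf135 (-0.95) and Rnf44 (-0.94).

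The mean GC content was 40.3% in the called highest windows and 60.9% in the called lowest windows, against 42.2% over all probes of the Rnf genes. This contrast was found across the arrays. Over all genes, the highest windows of called genes had 40.7%, and all windows called on the IgG side had 58.5%. Of the 11 genes called on both sides, all 11 had the GC-richer window on the IgG side, as had 96.3% of all genes called on both sides. The windows lay 111 bp apart at Rnf11, 235 bp at Rnf126 and 380 bp at Rnf138, and 6 of the 11 pairs lay under 1000 bp apart, or 54.5%, against 63.5% for all such genes. When the trend of the ratio along GC content was removed, 29 Rnf genes (50%) were called on the CREM side, against 30.7% of all genes, and 12 (20.7%) on the IgG side, against 12.8%. No more than this was tested of the part that GC content has in either side.

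An annotated start could be placed on the arrays for 37 of the 58 genes, by finding probe sequences inside RefSeq promoters, and distances are to the nearest such start. Of the 19 called highest windows with a start, 3 were centred within 200 bp of it, 9 lay between 200 and 1000 bp upstream, 2 as far downstream and 5 farther off, with a median distance of 725 bp. Of the 19 called lowest windows with a start, 10 were centred within 200 bp, 1 lay upstream and 5 downstream between 200 and 1000 bp, and 3 farther off, with a median distance of 178 bp. Called windows of all genes were not set beside these distances. Single probes of all genes also had their largest share at -1 or less within 200 bp of a start (26.3%). Their share at 1 or more was 10.0% there and 18.8% between 1000 and 500 bp upstream.

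Over single probes, the Rnf genes had their largest CREM share between 1000 and 500 bp upstream, where 33 of 98 probes (33.7%) reached 1, against 18.8% for all genes. The mean of the gene means in this interval was 0.55 ± 0.71 (SD over 35 Rnf genes) and 0.31 ± 0.74 over all genes. Within 200 bp of the start 35 of 95 probes (36.8%) lay at -1 or less, against 26.3% for all genes, and the mean was -0.43 ± 1.01 for the Rnf genes and -0.36 ± 0.88 for all genes. The probes in this inner interval had a mean GC content of 55.0% for Rnf genes and 52.0% for all genes. Between 200 and 500 bp upstream and between 2000 and 3000 bp downstream the CREM shares of the Rnf genes, 22.6% and 7.53%, lay near the 19.4% and 7.1% of all genes. Between 3000 and 2000 bp upstream the CREM share was 4.76% for Rnf genes, below the 7.65% of all genes.

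**Figure D4:**
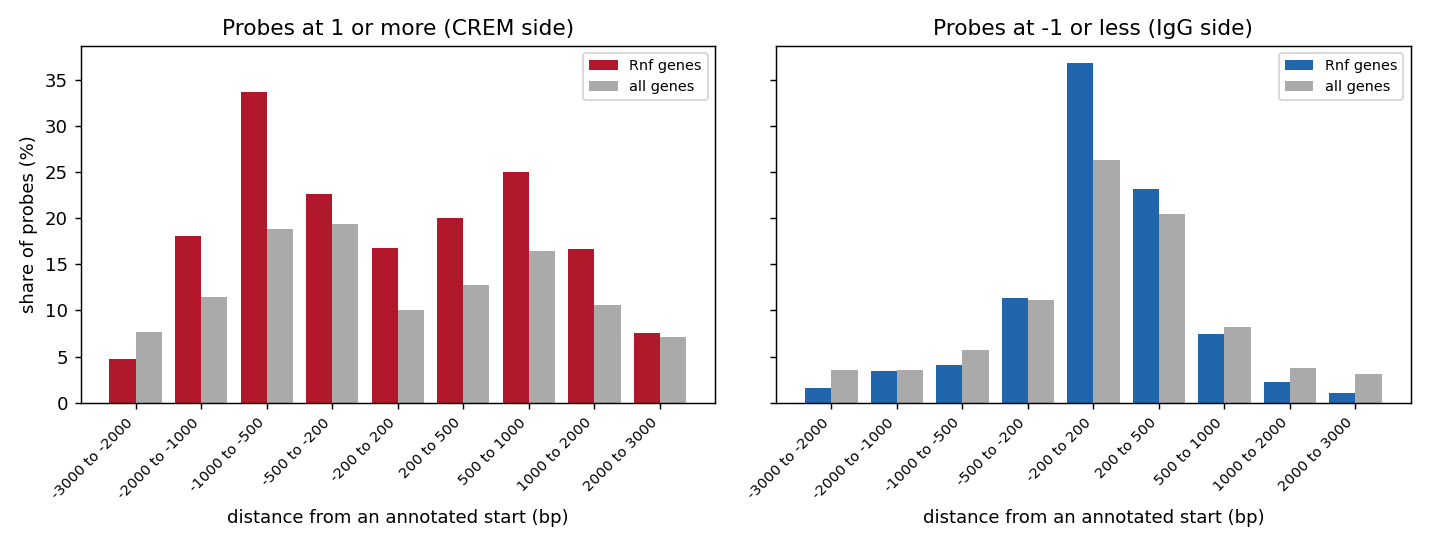
Share of probes (%) at 1 or more (left) and at -1 or less (right) by distance in bp from an annotated start, negative upstream, for Rnf genes (coloured) and all genes (grey). The Rnf genes are highest on the CREM side from -1000 to -500 bp, at 33.7% of probes, and on the IgG side from -200 to 200 bp, at 36.8%.

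The full element TGACGTCA was in none of the 1533 probes of the Rnf genes, against 0.057% of all probes. The core, TGACG or CGTCA and so searched on both strands, also lies inside the full element, and was in 35 probes of Rnf genes, or 2.28%, against 2.08% of all probes. Of 133 CREM-side windows of Rnf genes 10 held a core (7.52%), against 10.5% of all CREM-side windows of the arrays. On the IgG side 17 of 75 held one (22.7%, against 14.1%), and between the thresholds 57 of 933 (6.11%, against 5.8%). Neighbouring windows share probes, so the same core can be counted in several windows. These window counts are therefore not counts of separate places. The 75 IgG-side windows had a mean GC content of 59.7%, against 58.5% for all genes. For the CREM-side windows it was 41.5%, against 41.0%. A core stood in the highest window of 2 called genes, Rnf5 and Rnf4, or 6.67%, against 10.6% of all called genes. Probes cover only part of a promoter, so that these letters may also stand between probes.

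In the RefSeq table, 43 of the 58 genes had a promoter, 59 promoters in all. None of the 59 held the full element, against 1.79% of all promoters of the table, and 18 held a core (30.5%, against 20.8%). By gene, 12 of 22 Rnf genes called on the CREM side (54.5%) and 6 of 21 not called (28.6%) had a promoter with a core. Over the genes of the arrays the shares were 43.7% of 4660 called genes and 21.6% of 8151 not called, and for the full element 6.61% and 0.748%. The Rnf166 promoter held 4 cores, the most of any Rnf promoter. Its highest window (0.82, 1.26 and 1.43), however, was centred 1046 bp downstream of the start. At Rnf4 the highest window reached the start whose promoter is printed above, and at Rnf141 it lay downstream of it. At Rnf6 the promoter with a core belongs to another start than the one at the highest window. A match of letters is a description of the sequence and not a site of binding.

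The values depended on the setting to differing degrees. Under 13 other settings that kept the threshold, 8 Rnf genes stayed at 1 or more in all 13 (Rnf11, Rnf122, Rnf181, Rnf4, Rnf113a2, Rnf12, Rnf214 and Rnf5), and 1, Rnf14, stayed at -1 or less. How many of all genes did so was not counted, so these 2 counts describe single genes only. Rnf5 ranged from 2.23 to 3.81 over these settings, Rnf214 from 1.88 to 2.40 and Rnf4 from 1.79 to 1.96. Rnf25 ranged from 0.32 to 2.20 and Rnf133 from 0.46 to 1.81, each with 1 setting under the threshold. The share of Rnf genes past the threshold exceeded that of all genes in each setting tried, for CREM and for IgG.

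**Figure D5:**
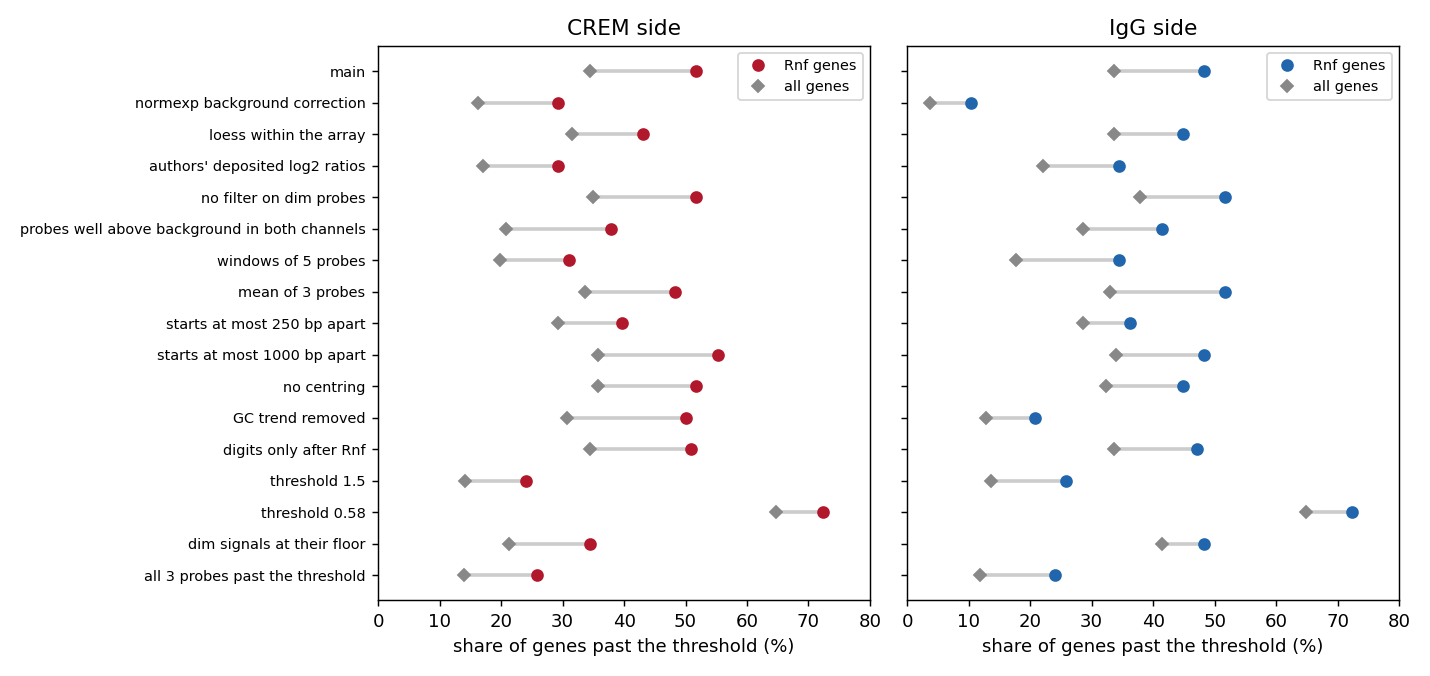
Share of genes (%) past the threshold for CREM (left) and IgG (right) under each setting, for Rnf genes (circles) and all genes (diamonds). The Rnf genes lie to the right of all genes in each row, from 24.1% against 14.1% (threshold 1.5) to 72.4% against 64.7% (threshold 0.58) on the CREM side.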

How the data were processed

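Germ-cell chromatin precipitated with CREM antibody (Cy5) or goat IgG (Cy3) was hybridised once to each of 2 promoter arrays. The scanner software was Agilent Feature Extraction 10.7.1.1, and positions refer to mm9, per the file headers. The deposited scanner files give an intensity per spot and channel, both raw and processed (background taken off, dyes brought to 1 scale). Per the file headers they also hold a log10 ratio, which was not used because it is 0 for many dim spots, and flags for outliers, saturation and signals well above background. The values that the authors deposited as a table are log2 ratios and equal median-background subtraction followed by limma's within-array loess (largest difference 5e-08 and 4.93e-08), in the direction CREM over IgG, with medians of -0.000965 and -0.00103. R 2.10.1 and limma are named in the submitters' processing notes.

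Control spots, outliers (46 and 9), probes without a position (301 and 417) and probes dim in both channels (8573 and 10355) were left out, which kept 228275 and 226404 probes. Median signals of CREM and IgG were 790 and 788 on array 1 and 781 and 779 on array 2. Ratios were centred on the array median without loess. A window belongs to the gene named for its middle probe. Repeat spots of 21 control probes had a median SD of 0.14 on both arrays, and the number of arrays limits the precision. Starts came from probe sequences found in RefSeq promoters (GRCm38.p6), 18746 probes in 14870 promoters, and 2 Rnf names were updated. Exons and introns are not stated because no mm9 annotation was used here. Other background corrections, normalisations, filters, window rules, thresholds and a removal of the GC trend were tried as alternatives. Window code was tested on simulated data. Python 3.11.15, pandas 2.3.3, R 4.3.3 and limma 3.58.1 were used.

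Named were the 10 Rnf genes with the highest and the 6 with the lowest windows, the testis group, the 3 genes on each side of both thresholds, the 3 lowest highest windows, the 2 highest genes of each other list, and neighbours that share a window. Values of 1 gene that this rule names are not reported here, though it is part of the counts. Other Rnf genes named were chosen after their values were seen. The Rnf genes and all lists were chosen with earlier results of these data known.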

Additional observations from a re-analysis of the deposited data

How the results depend on the processing

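The number of Rnf genes called on the CREM side was 30 in the main setting (51.7%, against 34.4% of all genes). It was 17 with normexp background correction (29.3%, against 16.2%) and 17 with the authors' deposited values (29.3%, against 17.1%). Windows of 5 probes left 18 (31.0%, against 19.8%) and a threshold of 1.5 left 14 (24.1%, against 14.1%). Where all 3 probes had to pass it was 15 (25.9%, against 14.0%). The number on the IgG side was 28 in the main setting (48.3%, against 33.6% of all genes). It was 6 with normexp (10.3%, against 3.7%) and 12 with the GC trend removed (20.7%, against 12.8%). At 1.5 it was 15 (25.9%, against 13.6%), and with all 3 probes 14 (24.1%, against 11.9%). The median highest window, 1.01, was 0.66 with normexp, 0.73 with the authors' values, 0.77 with probes well above background in both channels, 0.62 with windows of 5, 0.76 with starts at most 250 bp apart, 0.79 with dim signals at their floor and 0.55 with all 3 probes. The median lowest window, -0.96, was -0.42, -0.77, -0.80, -0.83, -0.52 and -0.50 with normexp, the authors' values, windows of 5, starts at most 250 bp apart, the GC trend removed and all 3 probes. The highest window of Rnf113a1 turned to -1.24 with probes well above background in both channels. In these changes the cause was not tested, apart from the fewer windows that pass a stricter rule. Of 1508 other values of single Rnf windows, 968 moved by less than the spread of control spots. The settings with dim signals at their floor and with all 3 probes were chosen after seeing the data. With the GC trend removed the median lowest window of the Rnf genes, -0.52, lay above the -0.59 of all genes, while 20.7% of Rnf genes passed -1, against 12.8% of all genes. Dim IgG signals limit the CREM side, and 1 hybridisation per array limits every value. No paired analysis was possible because no group has a second sample.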
